A study of Gallus gallus with 24 samples.

Results

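HSPA2 and the 9 other heat shock chaperone genes HSPA8, HSPA9, HSPA4L, HSPH1, HSP90AA1, HSP90AB1, HSPD1, HSPE1 and DNAJA1 were followed through 24 RNA-seq libraries of DF1, a chicken embryonic fibroblast line. The 10 genes were taken by their symbols from the 25466 genes of the count tables, and all 10 had enough counts to be tested. HSPA2 was selected on its measured counts, which exceeded those of any other gene in most libraries and were low in mock replicate 2, so both properties are given as descriptions without a test.

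Chaperones of the HSP70 family bind exposed stretches of unfolded proteins and release them in cycles driven by ATP. J-domain proteins such as DNAJA1 deliver the client and start ATP hydrolysis, and HSP110 proteins such as HSPH1 and HSPA4L exchange the nucleotide so that the client is let go. HSP90 proteins act later on kinases, receptors and other signalling proteins, while HSPD1 and HSPE1 form the folding chamber and its lid inside mitochondria, where HSPA9 is the HSP70. Heat shock factors raise the transcription of many, but not all, of these genes when proteins unfold.

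The cells were either mock (labelled wild type) or IRF9 knockdown, IRF9 being a transcription factor of the interferon response. All samples carry the label poly(I:C), a double-stranded RNA made in the laboratory that imitates viral RNA, with times of 0 h, 30 min, 1 h and 6 h, and each of the 8 groups held 3 libraries made by poly(A) enrichment with a directional kit. The labels do not say how the knockdown was made or how poly(I:C) reached the cells, and no later time without poly(I:C) was analysed, so poly(I:C) and time in culture cannot be told apart. Nothing in the labels says that the replicates were separate cultures, and each p-value therefore reflects only how far these libraries spread, which may be technical. The growth label gives a culture temperature well below the usual one for chicken cells, which may be a typing error. Whether it bears on the heat shock genes was not tested.

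The libraries held 12174030 to 19974065 counts in genes, and 14883 to 15803 genes had at least 1 count. Levels are in CPM, counts scaled to a common library size, after TMM scaling, which adjusts library totals for differences in composition. IRF9 averaged 27.0 to 34.6 CPM in the 4 mock groups and 15.3 to 21.7 CPM in the 4 knockdown groups, lower in knockdown by a log2 fold change of -0.79 ± 0.09 (SE; edgeR quasi-likelihood test, Benjamini-Hochberg adjusted p = 7.67e-05). The 15 fibroblast markers summed to 5546 to 8020 CPM, and 1 of them, the fibrillar collagen COL3A1, ranged from 164 to 577 CPM. The 10 muscle markers in the tables summed to 1.57 to 5.67 CPM, and 5 of them were at 0 in all libraries. Leukocyte markers summed to 19.1 to 39.7, epithelial to 9.14 to 15.1, endothelial to 178 to 307 and neural to 223 to 551 CPM. Most of the endothelial sum was 1 gene, ERG, at 175 to 300 CPM. Most of the neural sum was also 1 gene, TUBB3. Of the 8 neural markers 5 averaged under 1 CPM, and NEFL and GFAP reached 8.03 and 6.22 CPM at most. The 4 libraries of mock replicate 2 stood apart for several of the chaperones, and the main comparisons of the chaperones that rest on them are given with and without them.

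HSPA2 lies on chromosome 5 (52384623 to 52386942, GRCg7b), and the annotation lists HSP70 among its synonyms. In mammals HSPA2 is known for its role in the testis. It was first by counts in 22 of the 24 libraries and took 0.623 to 3.23% of all counts in genes. This is a rank by counts, not by level per length of transcript. The exceptions were mock replicate 2 at 30 min and at 6 h, in the latter of which ACTB, cytoplasmic actin, ranked first, and the lowest rank of HSPA2 was 5.

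In mock cells HSPA2 stood at 23448, 8925 and 17140 CPM at 0 h in replicates 1, 2 and 3. The same replicates gave 25958, 6886 and 25535 CPM at 30 min and 31368, 7364 and 22370 CPM at 1 h. At 6 h they gave 27326, 6266 and 16058 CPM. Replicate 2 was the lowest at each time and replicate 1 the highest, so no mock group was tight: the coefficient of variation (CV, the SD as a percentage of the mean) was 44.1 to 63.7%.

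In knockdown cells HSPA2 stood at 25908, 26326 and 20769 CPM at 0 h and at 23203, 25947 and 17881 CPM at 30 min. It stood at 32626, 32952 and 14481 CPM at 1 h and at 28834, 28761 and 18026 CPM at 6 h. Here replicate 3 was the lowest at each time, and replicate 2 was not low. The CV of the knockdown groups was 12.7 to 39.6%.

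The group means of HSPA2, from low to high, were 16504 ± 7282 in mock at 0 h, 16550 ± 10538 in mock at 6 h, 19460 ± 10892 in mock at 30 min and 20367 ± 12127 CPM in mock at 1 h (SD, n = 3). The knockdown means followed at 22344 ± 4101 at 30 min, 24334 ± 3094 at 0 h, 25207 ± 6219 at 6 h and 26686 ± 10572 CPM at 1 h. No pair of neighbours in this order was further apart than the larger of their SDs. The highest library held 5.26 times the HSPA2 level of the lowest, while the counting error (Poisson) at its lowest count was 0.325%.

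**Figure D1:**
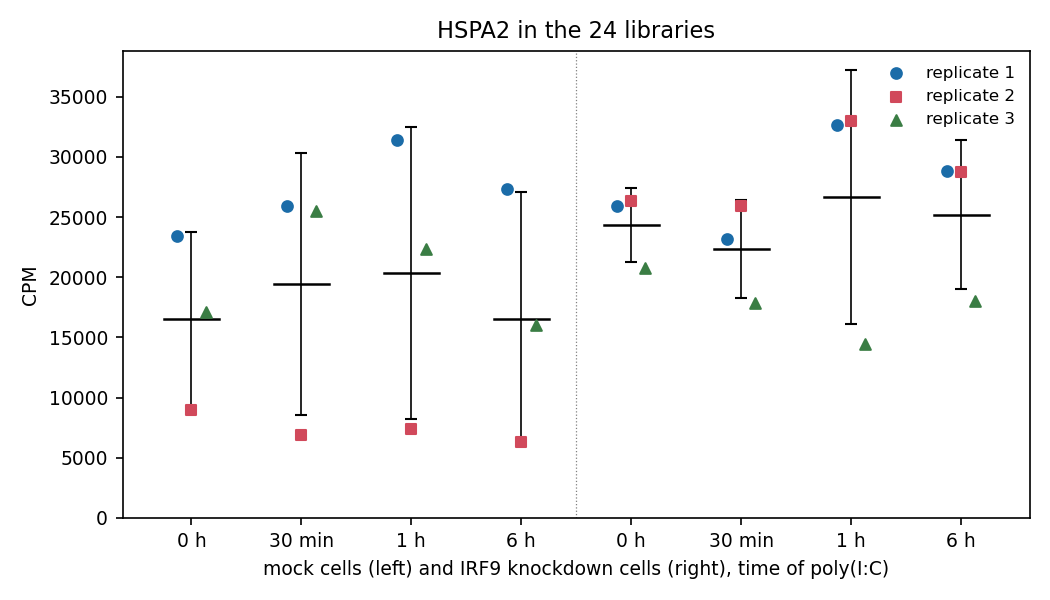
HSPA2 level (CPM) in each of the 24 libraries, by time of poly(I:C) in mock and IRF9 knockdown cells. Symbols are replicates and bars are the mean ± SD (n = 3). Mock replicate 2 lies between 6266 and 8925 CPM, below each of the other 20 libraries.

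The spread of HSPA2 between libraries of a group was also set beside that of other genes. The SD of log2 CPM pooled over the mock groups was 1.01 for HSPA2, against a median of 0.25 over the 13000 genes tested. In knockdown cells, whose libraries do not include mock replicate 2, it was 0.43, against a median of 0.17. Over all genes tested, 97.6% varied less than HSPA2 in mock cells and 81.9% in knockdown cells. Over the 2471 genes with a mean of at least 100 CPM, 99.9% varied less in mock cells, and 99.9% did so in knockdown cells. At the other end of the 10 genes were HSPD1, with a pooled SD of 0.06 in mock and 0.05 in knockdown cells, and HSP90AB1, with 0.07 and 0.04.

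HSPA8 (chromosome 24, 3128643 to 3133770) encodes the constitutive cytosolic HSP70, also known as HSC70. In mock replicates 1, 2 and 3 it stood at 6663, 4569 and 6905 CPM at 0 h, 6865, 4245 and 7677 CPM at 30 min, 7405, 4321 and 7268 CPM at 1 h, and 5896, 4110 and 5978 CPM at 6 h. In knockdown cells the replicates gave 7417, 7504 and 7812 CPM at 0 h, 7016, 7338 and 7068 CPM at 30 min, 8188, 7888 and 6392 CPM at 1 h, and 6411, 6385 and 6484 CPM at 6 h. The 4 libraries of mock replicate 2 were again the lowest of all 24. Without a gap of that kind the knockdown groups were tight, with CVs of 0.80 to 12.8%.

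HSP90AA1 (chromosome 5, 48992977 to 49000184) encodes the stress-inducible cytosolic HSP90. Its mock replicates stood at 5831, 3735 and 5710 CPM at 0 h and at 5429, 3508 and 5222 CPM at 6 h, and its knockdown replicates at 6390, 6465 and 6130 CPM at 0 h and at 5544, 5902 and 5784 CPM at 6 h. Between these times mock replicate 2 stood at 3192 and 3538 CPM, and the other mock libraries at 5440 to 6920 CPM. HSP90AB1 (chromosome 3, 29961033 to 29966993) encodes the constitutive cytosolic HSP90 and did not share the gap. It stood at 460, 428 and 422 CPM in mock cells at 0 h and stayed between 413 and 488 CPM in all 24 libraries.

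HSPH1 (chromosome 1, 174847379 to 174869372), an HSP110 protein, stood at 404, 271 and 387 CPM in mock cells at 0 h and at 329, 254 and 351 CPM at 6 h. In knockdown cells it stood at 426, 438 and 395 CPM at 0 h and at 314, 340 and 382 CPM at 6 h. Mock replicate 2 was the lowest of the mock libraries at each time. HSPA4L (chromosome 4, 33877697 to 33904752), a related HSP110 protein, ranged from 449 to 650 CPM, and the J-domain gene DNAJA1 (chromosome Z, 71165944 to 71181383) from 139 to 228 CPM, both lowest in a library of mock replicate 2.

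Of the mitochondrial chaperones, HSPD1 (chromosome 7, 9824993 to 9834299) and HSPE1 (chromosome 7, 9834761 to 9839275) lie next to each other with 461 bases between them. HSPD1 ranged from 842 to 993 CPM and HSPE1 from 319 to 496 CPM over all 24 libraries. HSPA9 (chromosome 13, 2405305 to 2426690) ranged from 507 to 637 CPM. Neither HSPD1 nor HSPE1 had its lowest value in mock replicate 2.

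**Figure D2:**
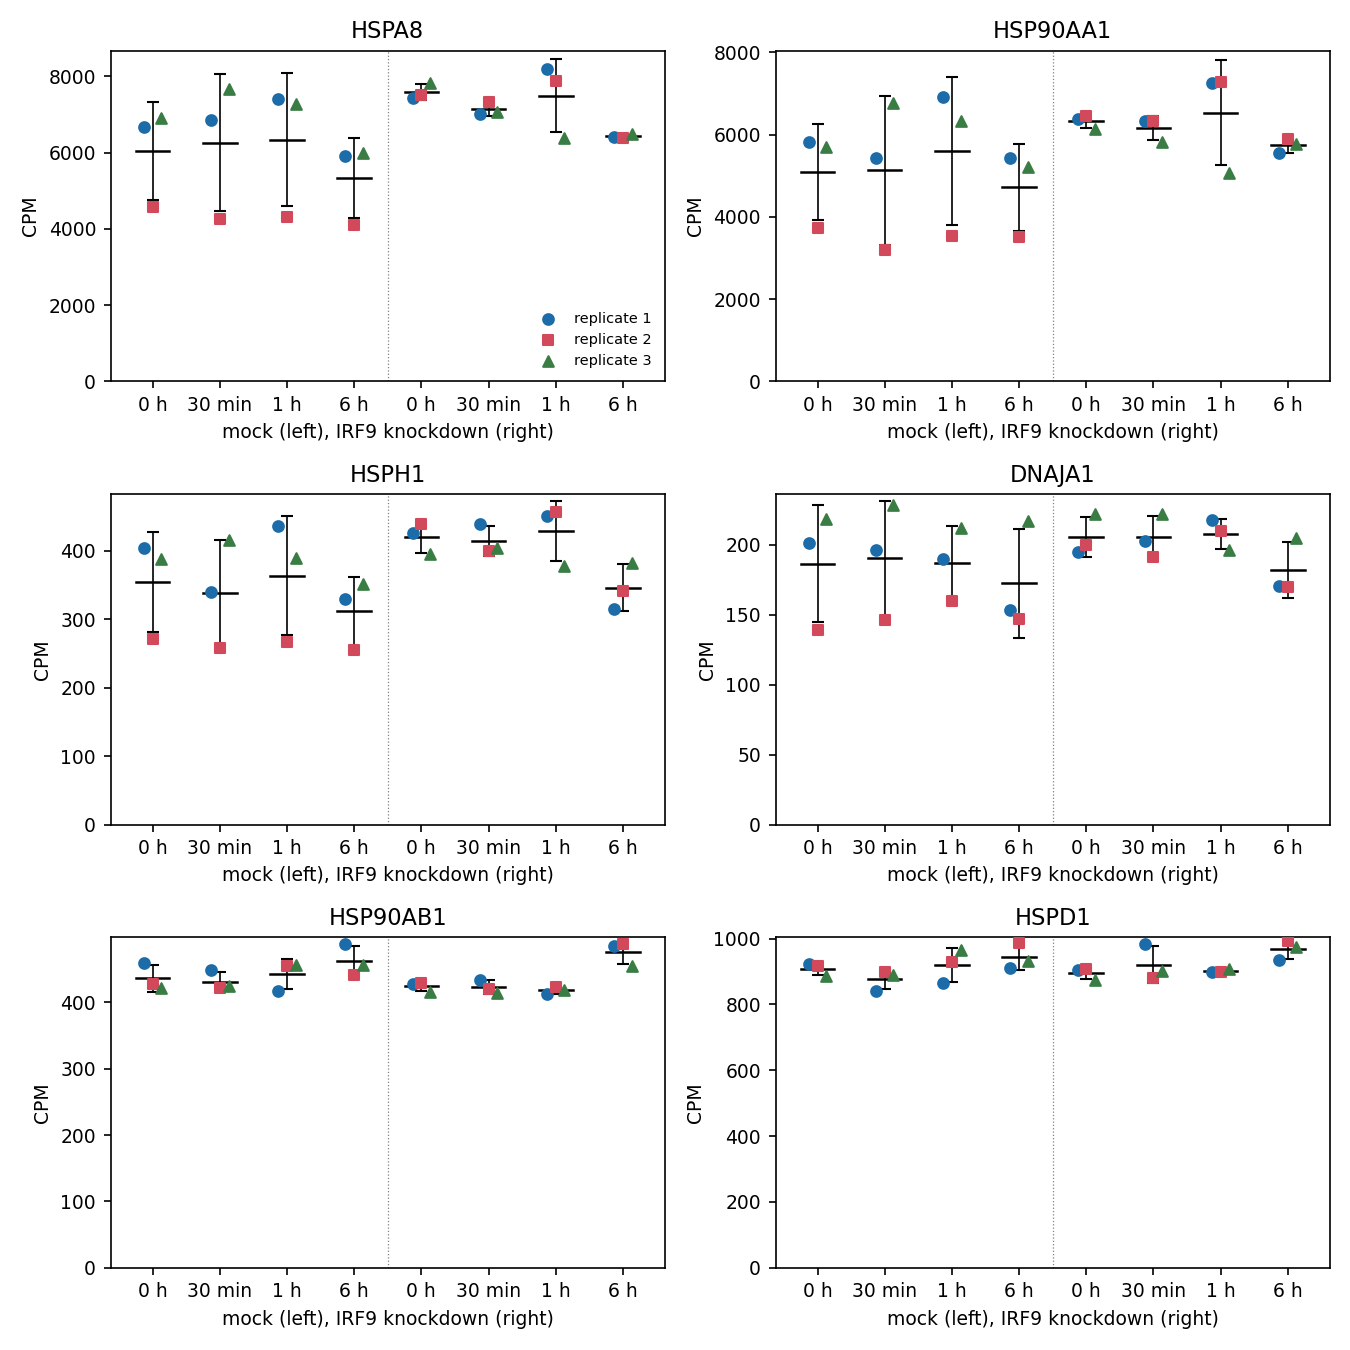
Level (CPM) of 6 further chaperone genes in each library, by time of poly(I:C), with mock cells on the left and IRF9 knockdown cells on the right of each panel (symbols, replicates; bars, mean ± SD, n = 3). Mock replicate 2 is the lowest mock library at each time for HSPA8, HSP90AA1, HSPH1 and DNAJA1, and is not set apart for HSP90AB1 or HSPD1.

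The gap of mock replicate 2 was measured for each gene as its log2 CPM minus the mean log2 CPM of mock replicates 1 and 3, averaged over the 4 times. It was -1.66 for HSPA2, or 3.17-fold lower, and by time it was -1.17 at 0 h, -1.90 at 30 min, -1.85 at 1 h and -1.74 at 6 h. The next were HSP90AA1 at -0.77, HSPA8 at -0.66, HSPH1 at -0.53, DNAJA1 at -0.44 and HSPA4L at -0.26. HSPA9 at -0.13, HSP90AB1 at -0.03, HSPE1 at 0.04 and HSPD1 at 0.05 were close to 0. The gap thus took in cytosolic HSP70, HSP110, the inducible HSP90 and a J-domain partner, and was small or absent for the 3 mitochondrial chaperones and the constitutive HSP90.

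Mock replicate 2 lay below both other mock replicates at all 4 times for 6 of the 10 genes, beside 16.8% of the 13000 genes tested, and above both for 0 of the 10, beside 12.2%. Since low values in these libraries were part of how the genes were chosen, nothing further is read from this count. With library totals in place of TMM the count was 5, without HSPA4L, beside 12.6% of the genes. The 10 genes together took 1.70 to 2.12% of the counts in the 4 libraries of mock replicate 2 and 3.03 to 5.07% in the other 20.

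**Figure D3:**
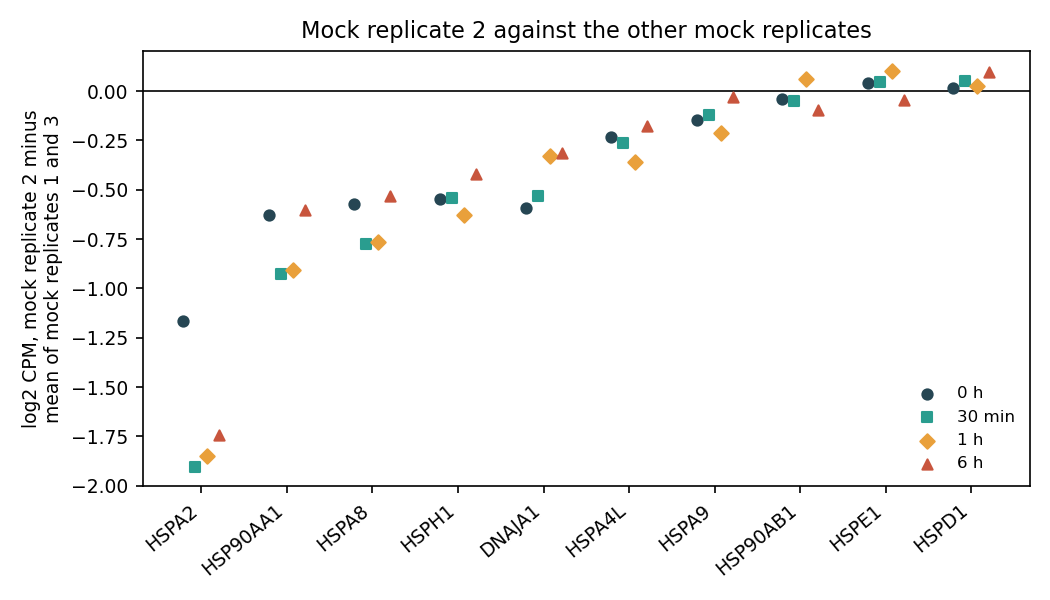
Difference of mock replicate 2 from the mean of mock replicates 1 and 3 (log2 CPM) for each of the 10 genes, 1 symbol per time. HSPA2 lies lowest, between -1.90 and -1.17, and HSPD1, HSPE1 and HSP90AB1 lie around 0.

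Other genes of protein folding and the stress response were read from 10 lists holding 158 further genes, of which 137 were in the tables and 129 were tested. Mock replicate 2 lay below both other mock replicates at all 4 times for 42 of the 129, or 32.6%, and above both for 11, or 8.53%. Over all 13000 genes tested the shares were 16.8% and 12.2%. The lists were chosen with earlier results of these data known, and the low values of mock replicate 2 were part of the selection of HSPA2. Nothing further is read from these counts or from the counts by list below. The gap was largest for HSPB9, at -1.63, followed by the immediate early gene FOS at -1.39, DNAJB1 at -1.33, the stress-induced gene GADD45B at -1.15 and BAG3 at -0.97. HSPB9, a small heat shock protein that keeps unfolded proteins soluble and is annotated with the synonym HSP25, stood at 1230 to 1783 CPM in mock replicate 2, at 2901 to 9438 CPM in the other mock libraries and at 2801 to 6038 CPM in knockdown cells. DNAJB1, the J-domain partner of inducible HSP70, stood at 132 to 209, 283 to 708 and 311 to 572 CPM in the same order.

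BAG3, a nucleotide exchange factor of HSP70, stood at 178 to 241 CPM in mock replicate 2, at 343 to 468 CPM in the other mock libraries and at 359 to 484 CPM in knockdown cells, again without overlap between mock replicate 2 and the rest. The J-domain gene DNAJA4 gave 100 to 114, 166 to 244 and 176 to 245 CPM, and the HSP90 co-chaperone CHORDC1 gave 145 to 165, 196 to 280 and 220 to 304 CPM. By list, mock replicate 2 was below both other mock replicates at all 4 times for 10 of 32 J-domain genes, 4 of 9 nucleotide exchange and BAG genes, 5 of 13 chaperonin TRiC and prefoldin genes, 4 of 18 HSP90 co-chaperones, 2 of 3 small heat shock proteins and 2 of 7 heat shock factors and regulators. It was above both for 2, 0, 0, 3, 0 and 0 of them. It was below for 4 of 6 other HSP70 and HSP110 genes, and above for 0. Of 9 further genes of mitochondrial protein folding and proteolysis it was below for 3, AFG3L2, CLPX and PAM16. It was above for 2, LONP1 and SPG7, so the mitochondrial genes outside the set of 10 were mixed. All these counts stand beside 16.8% below and 12.2% above over the 13000 genes tested. The HSP90 co-chaperones, at 22.2% below and 16.7% above, were near these shares.

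In the endoplasmic reticulum the gap was mixed. HSPA5, the HSP70 of that compartment, had a gap of -0.49 and stood at 1415 to 1588 CPM in mock replicate 2 and at 1702 to 2608 CPM in the other mock libraries. Of 18 genes of endoplasmic reticulum stress, mock replicate 2 was below both other mock replicates for 2 and above both for 3. Those are 11.1% and 16.7%, near the 16.8% and 12.2% of all genes tested. Of 14 other genes known from the heat shock response, 6 were below, beside 16.8% of all genes tested. They were FOS, JUN, ATF3, GADD45B, IER5 and SQSTM1. FOS stood at 9.16 to 12.8 CPM in mock replicate 2 and at 13.8 to 51.0 CPM in the other mock libraries. GADD45B stood at 27.0 to 53.0 and 64.6 to 151 CPM in the same order. The knockdown ranges of FOS, 10.3 to 48.6 CPM, and of GADD45B, 50.02 to 125.62 CPM, overlapped those of mock replicate 2. Of the same 14 genes SERPINH1, the collagen chaperone also called HSP47, was above.

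Some markers of cell type also differed in mock replicate 2. Over all 13000 genes tested, it was below both other mock replicates at all 4 times for 16.8% and above both for 12.2%. Of 14 fibroblast markers tested, mock replicate 2 was above both other mock replicates at all 4 times for 9, among them the collagens COL1A2, COL3A1, COL5A1 and COL6A1, and below for VIM. COL3A1 stood at 436 to 577 CPM in mock replicate 2, at 175 to 337 CPM in the other mock libraries and at 164 to 345 CPM in knockdown cells. The summed level of all 15 fibroblast markers was 7365 to 8020 CPM in mock replicate 2, 5806 to 8010 CPM in the other mock libraries and 5546 to 6861 CPM in knockdown cells. The 10 leukocyte markers summed to 21.8 to 39.3, 19.1 to 39.7 and 20.2 to 38.3 CPM, with CD8A at 0, and the 9 epithelial markers in the tables to 9.14 to 14.6, 9.89 to 12.1 and 9.25 to 15.1 CPM. The 7 endothelial markers summed to 223 to 307 CPM in mock replicate 2, 183 to 253 CPM in the other mock libraries and 178 to 241 CPM in knockdown cells, and of 4 tested mock replicate 2 was above both for ERG and TIE1. Most of that sum was ERG, at 219 to 300, 180 to 248 and 175 to 237 CPM in the same order, and 5 of the 7 averaged under 1 CPM. The 8 neural markers, with SNAP25 at 0, summed to 223 to 309, 239 to 551 and 258 to 346 CPM, and of 3 tested mock replicate 2 was below both for TUBB3 and GFAP, the latter at 1.11 to 2.18 against 1.85 to 6.22 CPM. Most of the neural sum was TUBB3, and 5 of the 8 neural markers averaged under 1 CPM. The 10 muscle markers in the tables summed to 1.57 to 2.49, 1.64 to 5.14 and 1.63 to 5.67 CPM. Of 4 leukocyte, 2 epithelial and 1 muscle markers tested, mock replicate 2 was below both for 0 and above both for 0. TIE1 was at a low level, 0.44 to 1.05 CPM in mock replicate 2. The part of the markers in the chaperone gap was not tested. In whole cultures fewer cells of a type and less RNA per cell cannot be told apart.

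The comparison of knockdown with mock asked whether lowering IRF9 altered the chaperones. No chaperone of the 10 was called (adjusted p under 0.05) at any time or in the average over the 4 times. IRF9 itself passed at 30 min (edgeR, adjusted p = 0.0316) and in the average. It did not pass at 0 h, 1 h or 6 h (edgeR, adjusted p = 0.997, 0.975 and 0.777). A count of 0 at these times therefore does not show that the chaperones were unchanged. The fit took all libraries as independent. The 4 libraries of mock replicate 2 deviated together from their group means (correlations 0.341 to 0.441), so errors and p-values of the average may be too small. The average log2 fold change of HSPA2, knockdown over mock, was 0.44 ± 0.24 (SE; edgeR, adjusted p = 0.470), and it was 0.07 ± 0.13 (edgeR, adjusted p = 1.0) without mock replicate 2. Its estimates at 0 h, 30 min, 1 h and 6 h were 0.56, 0.20, 0.39 and 0.61, and 0.26, -0.19, -0.01 and 0.21 without those 4 libraries. HSPA2 was selected for low values in those libraries, so leaving them out had to lower its estimates. The drop is therefore a description and tests nothing.

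The averages of the other cytosolic chaperones except HSP90AB1 also went nearer to 0 without mock replicate 2, where these genes were low. The average for HSP90AA1 was 0.27 ± 0.11 with all libraries and 0.06 without mock replicate 2, for HSPA8 0.26 ± 0.10 and 0.07, and for HSPH1 0.23 ± 0.08 and 0.08. For HSPA4L it was 0.12 ± 0.05 and 0.04, and for DNAJA1 0.12 ± 0.08 and -0.01. HSPD1 at 0.01 ± 0.03, HSPE1 at 0.00 ± 0.05 and HSP90AB1 at -0.03 ± 0.03 were near 0 with all libraries. The background for 0 of 10 called was 0.00769% of the 13000 genes in the average and at 30 min, and 0% at 0 h, 1 h and 6 h. The 1 gene called in the average and at 30 min was IRF9.

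At an unadjusted p under 0.05, edgeR counted 4 of the 10 in the average (HSPA8, HSPA4L, HSPH1 and HSP90AA1), beside 10.8% of all genes tested, and 1 at 30 min (HSPA4L), beside 13.3%. Without mock replicate 2 it counted 0 in the average, beside 2.94%, and 0 at 30 min, beside 17.8%. At 0 h, 1 h and 6 h it counted 0 with and without those libraries, and DESeq2 called 0 in each comparison at an adjusted p under 0.05. Every knockdown library lay above every mock library for HSPA8, HSPA4L and HSP90AA1 at 0 h, 3 of the 10 beside 4.71% of all genes tested, and for HSPA8 and HSP90AA1 at 6 h, 2 of the 10 beside 6.92%. None of the 10 did so at 30 min or at 1 h, beside 5.42% and 3.06%. None of the 10 lay wholly below mock at 0 h, 30 min, 1 h or 6 h, beside 5.01%, 6.44%, 3.38% and 6.35%. Without mock replicate 2, which leaves 2 mock libraries a time, the genes wholly above mock were HSPA8, HSPA4L and HSP90AA1 at 0 h, 3 of the 10 beside 7.98%, and HSPA8, HSP90AA1 and HSPD1 at 6 h, 3 of the 10 beside 11.1%. None was so at 30 min or 1 h, beside 13% and 6.63%, and none lay wholly below at 0 h, 30 min, 1 h or 6 h, beside 8.1%, 15%, 6.85% and 10.5%.

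**Figure D4:**
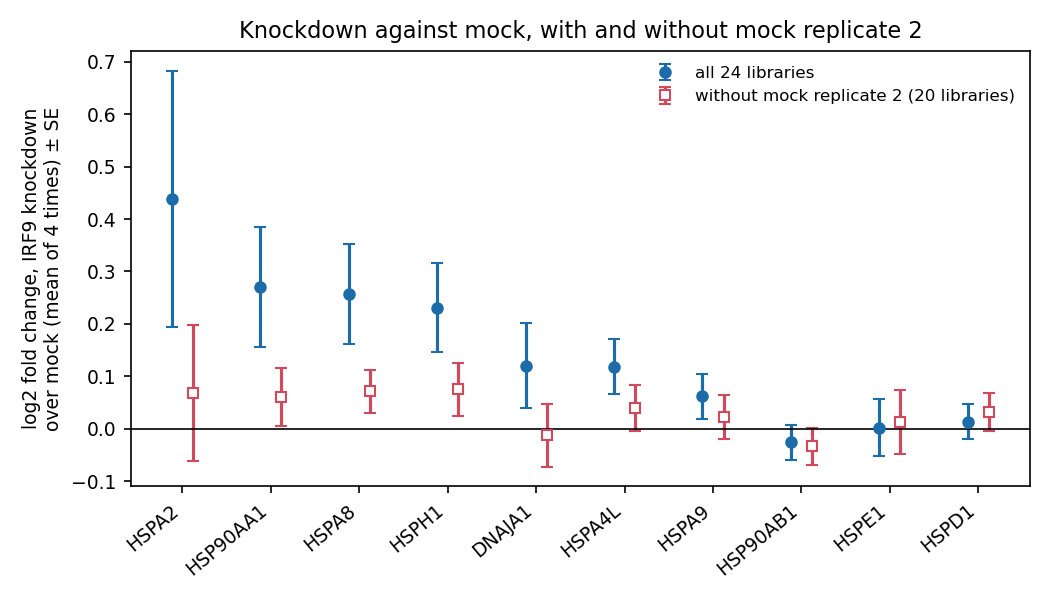
Log2 fold change of IRF9 knockdown over mock, averaged over the 4 times (point ± SE, edgeR), for the 10 chaperone genes with all 24 libraries and with the 20 libraries without mock replicate 2. HSPA2 goes from 0.44 to 0.07, and the estimates for HSPD1, HSPE1 and HSP90AB1 stay within 0.05 of 0. HSPA2 was selected for its low values in the libraries left out, and the errors take all libraries as independent.

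The time course asked whether the chaperones moved after poly(I:C). At 6 h against 0 h, 0 of the 10 were called in mock cells, beside 2.17% of the 13000 genes, 0 in knockdown cells, beside 1.72%, and 0 with both genotypes pooled, beside 5.05%. At 30 min and 1 h the counts were also 0, with backgrounds of 0% at 30 min and, at 1 h, of 0.0154% in mock, 0.0231% in knockdown and 0.0462% pooled. Over these 9 comparisons edgeR counted only HSP90AB1 at an unadjusted p under 0.05, at 6 h in knockdown cells, 1 of the 10 beside 10.5% of genes, and pooled, 1 beside 16.2%, with 0 in mock cells beside 9.98%. Without mock replicate 2 the counts at 6 h were 1 in mock cells (HSPA8), beside 9.01%, 3 in knockdown cells (HSPA8, HSPH1 and HSP90AB1), beside 13.5%, and 4 pooled (the same 3 and DNAJA1), beside 16.6%. DESeq2 called none of the 10 at an adjusted p under 0.05 in these comparisons.

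HSPA2 itself had no common course. By replicate number its log2 change from 0 h to 6 h was 0.22, -0.51 and -0.09 in mock cells and 0.15, 0.13 and -0.20 in knockdown cells. The fitted change was 0.00 ± 0.49 (edgeR, adjusted p = 0.999) in mock and 0.05 ± 0.49 (edgeR, adjusted p = 0.994) in knockdown cells. In that fit the SE was larger than either estimate. The fit took a common spread for each gene over all 24 libraries. The error of a knockdown change therefore also carried the spread of the mock libraries, mock replicate 2 included. With the replicate number as a block within each genotype, the changes were -0.14 ± 0.13 in mock and 0.02 ± 0.13 in knockdown cells. Neither passed (edgeR, adjusted p = 0.681 and 0.9735). Without mock replicate 2 they were 0.095 ± 0.285 and 0.05 ± 0.23, and neither passed (edgeR, adjusted p = 0.977 and 0.968).

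HSPA8 was lower at 6 h than at 0 h in each mock replicate number (log2 -0.18, -0.15 and -0.21), and its 3 knockdown libraries at 6 h, 6385 to 6484 CPM, lay below all 3 at 0 h, 7417 to 7812 CPM. The fitted changes were -0.18 ± 0.19 (edgeR, adjusted p = 0.882) in mock, -0.24 ± 0.19 (edgeR, adjusted p = 0.792) in knockdown cells and -0.21 ± 0.14 (edgeR, adjusted p = 0.496) pooled. None of these passed the test. The error given for knockdown cells also carried the spread of the mock libraries. HSPH1 gave -0.18, -0.28 and -0.23 in the same order, with a pooled adjusted p of 0.356 by edgeR. Without mock replicate 2 the changes in mock cells were -0.19 ± 0.09 for HSPA8 and -0.22 ± 0.11 for HSPH1. Neither passed (edgeR, adjusted p = 0.5205 and 0.598).

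HSPA8 and HSPH1 passed in other fits. Without mock replicate 2 the pooled change was -0.22 ± 0.06 for HSPA8 (edgeR, adjusted p = 0.0254) and -0.25 ± 0.07 for HSPH1 (edgeR, adjusted p = 0.0379), 2 of 10 called beside 5.2% of genes. A block for the replicate number within each genotype takes same-numbered libraries as paired, which is not settled for all numbers. With this block the pooled changes were -0.21 ± 0.05 for HSPA8 (edgeR, adjusted p = 0.00385) and -0.23 ± 0.06 for HSPH1 (edgeR, adjusted p = 0.00945), 2 of 10 beside 11.5%. With only the 6 knockdown libraries of the comparison in the fit, the change was -0.25 ± 0.04 for HSPA8 (edgeR, adjusted p = 0.00178) and -0.29 ± 0.07 for HSPH1 (edgeR, adjusted p = 0.0165), 2 of 10 beside 6.89%. HSP90AA1 was at -0.12 ± 0.16, HSPA4L at -0.12 ± 0.07 and DNAJA1 at -0.14 ± 0.12 in the pooled comparison of all libraries.

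On the other side of 0, HSP90AB1 went from 428, 429 and 417 CPM at 0 h to 485, 488 and 455 CPM at 6 h in knockdown cells, without overlap, and from 460, 428 and 422 to 488, 442 and 456 CPM in mock cells, with overlap. Its pooled change of 0.12 ± 0.05 had the smallest adjusted p of the 10 in that comparison (edgeR, adjusted p = 0.157) and did not pass. The mitochondrial genes HSPE1 at 0.14 ± 0.08, HSPD1 at 0.08 ± 0.05 and HSPA9 at 0.08 ± 0.06 also had pooled estimates above 0 that did not pass. In knockdown cells the 6 h and 0 h libraries did not overlap for HSPA8, HSPA4L, HSPH1 and HSP90AA1, lower at 6 h, 4 of the 10 beside 11.1% of genes, and for HSP90AB1, HSPD1 and HSPE1, higher at 6 h, 3 of the 10 beside 12.6%. In mock cells none of the 10 was without overlap at 6 h, beside 8.15% higher and 5.78% lower.

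The 6 h change was also compared between the genotypes. The difference of the changes, knockdown minus mock, was 0.05 ± 0.69 for HSPA2 (edgeR, adjusted p = 1.0), and 0 of the 10 were called at any time, beside 0% of the 13000 genes. At an unadjusted p under 0.05 edgeR also counted 0 of the 10, and DESeq2 called 0. With the replicate block the difference for HSPA2 was 0.16 ± 0.19 (edgeR, adjusted p = 0.999), and without mock replicate 2 it was -0.05 ± 0.37.

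**Figure D5:**
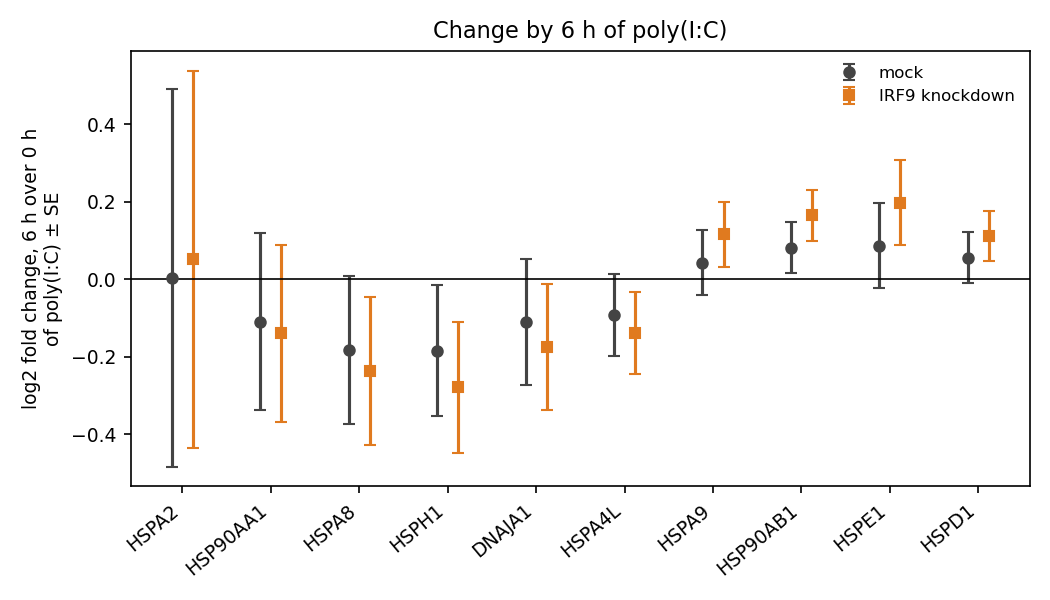
Log2 fold change at 6 h over 0 h of poly(I:C) (point ± SE, edgeR) for the 10 chaperone genes in mock and IRF9 knockdown cells. The errors take a common spread for each gene over all 24 libraries, mock replicate 2 included. HSPA8, HSPH1, HSPA4L, HSP90AA1 and DNAJA1 lie below 0 and HSP90AB1, HSPD1, HSPE1 and HSPA9 above 0 in both. HSPA2 lies at 0.00 in mock and 0.05 in knockdown cells, and none of the 20 estimates passed the test.

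Of the 129 further folding and stress genes, few were called at 6 h. HSF2, a heat shock transcription factor, rose by a pooled log2 fold change of 0.31 ± 0.06 (edgeR, adjusted p = 0.00284), from 133 to 162 CPM in mock and from 131 to 167 CPM in knockdown cells. EIF2AK3, also called PERK, the kinase that senses unfolded proteins in the endoplasmic reticulum, rose by 0.81 pooled, from 29.9 to 55.8 CPM in mock and from 31.2 to 51.0 CPM in knockdown cells. ATF3, a stress-induced transcription factor, rose by 0.56 ± 0.15 (edgeR, adjusted p = 0.0265).

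SERPINH1 fell by 0.49 on the log2 scale (SE 0.12; edgeR, adjusted p = 0.0114), from 436 to 331 CPM in mock and from 405 to 269 CPM in knockdown cells. These 4 were all that passed of the 129 in the pooled comparison, 3 higher and 1 lower, beside 5.05% of the 13000 genes tested. EIF2AK3 alone of the 129 passed within mock cells, by 0.90 (edgeR, adjusted p = 0.00387), beside 2.17% of genes. It alone also passed within knockdown cells, beside 1.72%. Without mock replicate 2 its change in mock cells was 0.71 ± 0.20 and did not pass (edgeR, adjusted p = 0.101), while all 4 genes passed in the pooled comparison. With all libraries 0 of the 129 passed between knockdown and mock at any time or in the average. The share of all genes was 0.00769% in the average and at 30 min, and 0% at 0 h, 1 h and 6 h. In the pooled comparison at 6 h the collagen gene COL5A1 fell by 0.57. Of the markers of other cell types CD3E rose by 1.08, PECAM1 by 0.96 and GRHL2 by 0.39. Each was the only gene called of its list, beside 5.05% of all genes. The lists held 14 fibroblast, 4 leukocyte, 4 endothelial and 2 epithelial markers tested. Without mock replicate 2 PECAM1, at 0.79, and GRHL2, at 0.32, did not pass (edgeR, adjusted p = 0.139 and 0.133). CD3E went from 10.7 to 23.7 CPM in mock cells and from 11.3 to 22.8 CPM in knockdown cells. The part of these markers in the changes at 6 h was not tested.

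The genes whose log2 CPM was most like that of HSPA2 were looked up among 8783 genes with a symbol and a mean of at least 5 CPM, by Pearson's correlation. Over all 24 libraries they were ALAS1, the first enzyme of heme synthesis, at 0.98, UBQLN1, which brings ubiquitinated proteins to the proteasome, at 0.97, C16orf72 at 0.97, the ubiquitin ligase ARIH1 at 0.96 and the cyclin CCNK at 0.96. Over the 20 libraries without mock replicate 2 they were RAB1B, a GTPase of transport from the endoplasmic reticulum, at 0.94, ALAS1 at 0.91, CCNK at 0.90, the protein-unfolding ATPase VCP at 0.90 and the J-domain gene DNAJB9 at 0.90. ALAS1 and CCNK were in both sets. The libraries share replicate numbers and composition, so these values describe the libraries and carry no test.

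Among the chaperones the likeness to HSPA2 rested on mock replicate 2 to different degrees. HSP90AA1 had a correlation of 0.94 over 24 libraries and 0.67 over 20, HSPA8 0.90 and 0.43, and HSPH1 0.80 and 0.20. HSPA9 kept its value, with 0.74 and 0.73, as did HSPA5, with 0.86 and 0.85. DNAJA1 went from 0.58 to -0.38, while HSPB9 gave 0.94 and 0.78 and DNAJB1 0.93 and 0.71. HSP90AB1, HSPE1 and HSPD1 were at 0.09, -0.16 and -0.25 over 24 libraries. Within the set and over all 24 libraries, HSPA8 had a correlation of 0.97 with HSP90AA1 and 0.94 with HSPH1. The neighbours HSPD1 and HSPE1 had 0.51, and the cytosolic HSP90 genes HSP90AA1 and HSP90AB1 had -0.14. These pairs were not computed without mock replicate 2, where HSPA8, HSP90AA1 and HSPH1 were all low.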

How the data were processed

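For each library the authors deposited unnormalised whole-number RNA-seq counts. HTSeq 2.0.5, the aligner STAR 2.7.11b, Trim Galore 0.6.10, FastQC 0.12.1, edgeR 3.40.2 and the build GRCg7b are named, per the submitters' processing notes. No source used here gives the strand setting. Rows for reads in no gene (14.6 to 18.8% of a table), in several genes (1.18 to 1.33%) or at several places (3.43 to 4.25%) were left out. Levels of near-identical genes could be understated by this. Of 25466 symbols, 25216 matched the RefSeq annotation of GRCg7b, which gave positions. Transcript lengths were not used here, so levels are not compared between genes.

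Genes were kept by filterByExpr (13000), scaled by TMM and fitted with edgeR 4.0.16 in R 4.3.3 (glmQLFit, glmQLFTest) as 8 group means over 24 libraries, with Benjamini-Hochberg adjustment over all genes tested in each of 17 comparisons. Standard errors are those of the log2 fold change. The test was run on simulated counts of independent libraries, with the same spread setting for all genes. No replicate there had an offset like that of mock replicate 2, so the simulation does not cover such an offset. Log2 CPM used a prior count of 2. At these depths 3 counts correspond to 0.150 to 0.246 CPM.

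The 10 chaperones and all gene lists were chosen with earlier results of these data known. Named besides them are list genes called in a comparison described, the list genes with the largest difference of mock replicate 2, examples from the list counts chosen after their values were seen, the 5 genes most like HSPA2, and IRF9. Same-numbered mock libraries deviated together (correlations of deviations 0.110 to 0.441), most for number 2 (0.341 to 0.441). Deviations were taken from the mean of 3 libraries, so the offset of number 2 also enters numbers 1 and 3. Whether mock numbers 1 and 3 are paired is therefore not settled. Same-numbered knockdown libraries deviated together weakly for number 3 (0.0651 to 0.167) and little or not at all for numbers 1 and 2 (-0.0127 to 0.075). Alternatives were other scalings, DESeq2 1.42.0, no low-count filter, only the groups compared, a replicate block, and leaving out each library or all of mock replicate 2.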

Additional observations from a re-analysis of the deposited data

How the results depend on the processing

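Over 17 comparisons and 32 alternatives, 24 of which left out 1 library, the number of the 10 chaperones called was 0 in the main analysis and in all but 5 of 538 values. At 6 h in knockdown cells it was 2 with only the groups compared and 2 with a replicate block within each genotype, beside 6.89% and 5.05% of all genes. With both genotypes pooled at 6 h it was 2 without mock replicate 2 and 2 with the replicate block, beside 5.2% and 11.5%. The genes were HSPA8 and HSPH1 each time. With the block, the knockdown changes had edgeR adjusted p of 0.0394 and 0.0482. The knockdown numbers pair the libraries weakly at most, with correlations of deviations from -0.0127 to 0.167. The block changed no other count. Without a low-count filter HSPA8 alone, 1 of the 10, was called between knockdown and mock on average (0.26; edgeR, adjusted p = 0.0257), beside 0.128% of all genes. That fit kept mock replicate 2, where HSPA8 was low, and took its libraries as independent. With the filter and without mock replicate 2 the HSPA8 average was 0.07 ± 0.04 and did not pass. The cause of these differences was not tested. Leaving out single libraries gave 0 each time.

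HSPA2's lowest adjusted p over all comparisons and alternatives was 0.114. HSF2, SERPINH1 and EIF2AK3 were called pooled at 6 h under all 32 alternatives, ATF3 under 26, PECAM1 under 24, GRHL2 under 19 and COL5A1 under 18. EIF2AK3 was called under 31 in mock and 23 in knockdown cells. Depth does not limit the 10 genes, whose counting error was at most 2.29%.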
